A study of Mus musculus with 9 samples.

Results

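The genes described here are the enzymes that turn cholesterol into bile acids and the bile acid receptor axis that controls them, measured in mouse liver. A gene was included if its mouse symbol was on a list of 10 (Cyp7a1, Cyp7b1, Cyp8b1, Cyp27a1, Cyp39a1, Akr1d1, Baat, Slc27a5, Nr1h4 and Nr0b2) and if the RefSeq transcript named for an array probe mapped to that symbol. All 10 genes were found, with 11 of the 55681 probes on the array, against 20972 genes named in all. Slc27a5 had 2 probes and every other gene had 1. All 11 probes lay well above background on all 9 arrays, so none entered the tests through one group alone.

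Total liver RNA from 9 male mice aged 20 weeks was hybridised to Agilent 1-colour whole-genome arrays, 3 mice in each of 3 groups. STAM mice are C57B/6 J mice that receive streptozotocin, a toxin of the pancreatic beta cell, shortly after birth and a high-fat diet from weaning, and they develop diabetes, steatohepatitis and liver tumours. STAM-NON mice were STAM mice given no drug, STAM-INS mice were STAM mice injected under the skin with a long-acting insulin dosed by blood glucose, and Normal mice received neither streptozotocin nor the high-fat diet. Against Normal, therefore, each STAM group differed by toxin, diet and disease together, and STAM-INS differed from STAM-NON by insulin. Streptozotocin also alkylates DNA outside the pancreas, and whether a liver sample held tumour was not given in the sources used here.

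Bile acid synthesis runs along a classical route, opened by Cyp7a1 in the endoplasmic reticulum, and an alternative route, opened by Cyp27a1 in mitochondria and continued by Cyp7b1. Cyp8b1 adds the hydroxyl group that separates cholic acid from the chenodeoxycholic and muricholic acids. The nuclear receptor FXR, encoded by Nr1h4, senses bile acids and induces SHP, encoded by Nr0b2, which represses Cyp7a1 and Cyp8b1 through the activators LRH-1 (Nr5a2) and HNF4A (Hnf4a).

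Upstream sequence is shown for the 4 members that passed the test in at least 1 comparison and that the RefSeq promoter table (GRCm38.p6) held. Each line gives the 250 bases before the annotated start, 5′ to 3′ on the strand of the gene, and capitals mark letters that matched a searched motif on either strand.
Cyp8b1 (chr9:121916306-121916555, minus strand): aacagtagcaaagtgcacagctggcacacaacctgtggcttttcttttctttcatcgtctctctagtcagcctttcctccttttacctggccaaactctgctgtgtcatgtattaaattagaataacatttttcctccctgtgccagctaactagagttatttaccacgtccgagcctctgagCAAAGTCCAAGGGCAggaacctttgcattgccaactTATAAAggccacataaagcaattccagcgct
Cyp27a1 (chr1:74713285-74713534, plus strand): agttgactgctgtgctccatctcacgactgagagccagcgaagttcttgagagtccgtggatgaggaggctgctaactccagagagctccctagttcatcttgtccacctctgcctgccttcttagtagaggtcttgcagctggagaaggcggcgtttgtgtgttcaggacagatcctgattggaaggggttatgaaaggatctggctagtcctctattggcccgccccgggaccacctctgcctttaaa
Akr1d1 (chr6:37529923-37530172, plus strand): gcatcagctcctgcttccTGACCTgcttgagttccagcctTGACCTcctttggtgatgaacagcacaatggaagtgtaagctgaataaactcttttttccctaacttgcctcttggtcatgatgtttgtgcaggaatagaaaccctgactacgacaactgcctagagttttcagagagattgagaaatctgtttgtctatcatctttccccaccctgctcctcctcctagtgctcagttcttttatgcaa
Nr1h4 (chr10:89506659-89506908, minus strand): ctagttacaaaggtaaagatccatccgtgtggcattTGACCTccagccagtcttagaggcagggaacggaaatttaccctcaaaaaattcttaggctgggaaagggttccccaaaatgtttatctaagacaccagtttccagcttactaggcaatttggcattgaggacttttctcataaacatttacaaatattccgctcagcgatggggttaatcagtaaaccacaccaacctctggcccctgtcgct

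The promoter of Cyp8b1 held the HNF4A type half-site CAAAGTCCA from 67 to 59 bases before the start and the LRH-1 type site CAAGGNCA, read as CAAGGGCA, from 60 to 53 bases before it, so that the matches shared 2 letters. The first of these motifs occurred in 0.384% and the second in 5.53% of the 32851 upstream windows of the same length. Cyp8b1 also held the TATA box letters TATAAA from 31 to 26 bases before the start (12.4% of windows). The nuclear receptor half-site AGGTCA, present in 14% of windows, was found on the opposite strand at 2 places in Akr1d1 and at 1 place in Nr1h4. Cyp27a1 matched none of the 5 motifs searched, and Nr0b2, the other member in the table, held CAAGGCCA and TATAAA. The inverted repeat of AGGTCA with 1 base between, the kind of element FXR binds, was in none of the 5 windows of members and in 2 of all windows. These are matches of letters, not measured binding.

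Levels are given as the log2 signal of a probe minus the log2 of the 75th percentile of its own array, so that 0 is a signal at that percentile and a step of 1 is a change of signal by 1 doubling. Because probes differ in brightness, a level is compared between mice for the same probe only. Groups were compared with limma over all 26289 probes that passed a filter on dim probes, and a gene was called when its Benjamini-Hochberg adjusted p was under 0.05. Whole liver was measured, so fewer cells of a type and less RNA per cell cannot be told apart.

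Some facts about the series bear on every value below. Spots well above background made up 47.8% to 63.1% of an array in STAM-NON, 47.8% to 65.0% in STAM-INS and 46.2% to 51.1% in Normal. All 6 STAM arrays lay on 1 slide and all 3 Normal arrays on another, so slide and scan cannot be told apart from Normal against STAM, whereas STAM-INS and STAM-NON shared a slide. Hepatocyte markers were present as the label liver requires: their mean level over 9 genes was 7.74 to 8.23 in STAM-NON, 8.28 to 8.37 in STAM-INS and 8.36 to 8.41 in Normal. The choice of centring moved the median difference of all probes between STAM-NON and Normal from -0.29 (centred on the median) to 0.20 (centred on the hepatocyte markers), against -0.13 as reported here, so small differences are read against that shift.

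In STAM-NON livers, 7 of the 10 genes had a lower mean than in Normal livers, 5 of these were called and no gene was called higher. The genes called were Cyp27a1 and Cyp7b1 of the alternative route, the ring reductase Akr1d1, the bile acid CoA ligase Slc27a5 and the receptor Nr1h4. Over all probes, 16.1% were called in either direction in this comparison and 9.76% were called lower. The median difference over the 10 genes was -0.55, beside -0.13 over all probes. The groups did not overlap for 6 of the 10 genes, all lower in STAM-NON, where 41.2% of all probes did not overlap and 28.1% did so with STAM-NON lower. The adjusted p-values of the 5 genes lay between 0.0408 and 0.0490, just inside the threshold, and Cyp8b1 (0.0511) and Baat (0.0566) lay just outside it.

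These calls depended on single arrays and on the centring, counted over the leading probe of each gene. When 1 array was left out, 5 members were called without STAM-NON replicate 2, 1 without STAM-NON replicate 3 and 0 without any 1 of the remaining 7 arrays. Those 5 were Cyp7b1, Cyp27a1, Baat, Slc27a5 and Nr1h4, so that Baat entered and Akr1d1 left, and the 1 was Cyp8b1. Under centring on hepatocyte markers, on E1A spike-in RNA or on the probes detected on all arrays, and under quantile normalization, Cyp8b1 was the 1 member called and it was higher in STAM-NON. The other probe of Slc27a5 was still called lower under the detected-probe percentile (-0.49, limma adjusted p 0.0340) and without any 1 of the STAM-INS arrays.

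In STAM-INS livers, 2 of the 10 genes were called against Normal: Cyp8b1 was higher and Nr1h4 was lower. Over all probes, 13.9% were called in this comparison, 8.72% lower and 5.15% higher. The groups did not overlap for 4 of the 10 genes, which was near the 44.0% seen over all probes. The median difference over the 10 genes was -0.31, beside -0.09 over all probes. When 1 array was left out, 0 members were called without STAM-INS replicate 2, Normal replicate 1 or Normal replicate 2, and 1 (Cyp8b1) without STAM-INS replicate 1 or Normal replicate 3. Without STAM-NON replicate 2 there were 3, with Cyp7b1 added, and without any other array Cyp8b1 and Nr1h4 were called. Both comparisons with Normal used the same 3 Normal arrays and are therefore not independent of each other.

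Between STAM-INS and STAM-NON livers, 0 of the 10 genes were called by limma. The lowest adjusted p of the leading probes was 0.563 (Cyp27a1). An unadjusted p under 0.05 was held by 1 gene, and by 2308 of all 26289 probes. Over all probes, 24 of 26289 (0.0913%) were called. The groups did not overlap for 3 of the 10 genes, each higher in STAM-INS (Cyp8b1, Cyp27a1 and Akr1d1), where 12.2% of all probes did not overlap and 7.24% did so with STAM-INS higher. The precision was limited: for the 10 genes the standard error of the difference ran from 0.13 (Nr1h4) to 0.60 (Nr0b2) on the log2 scale.

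**Figure D1:**
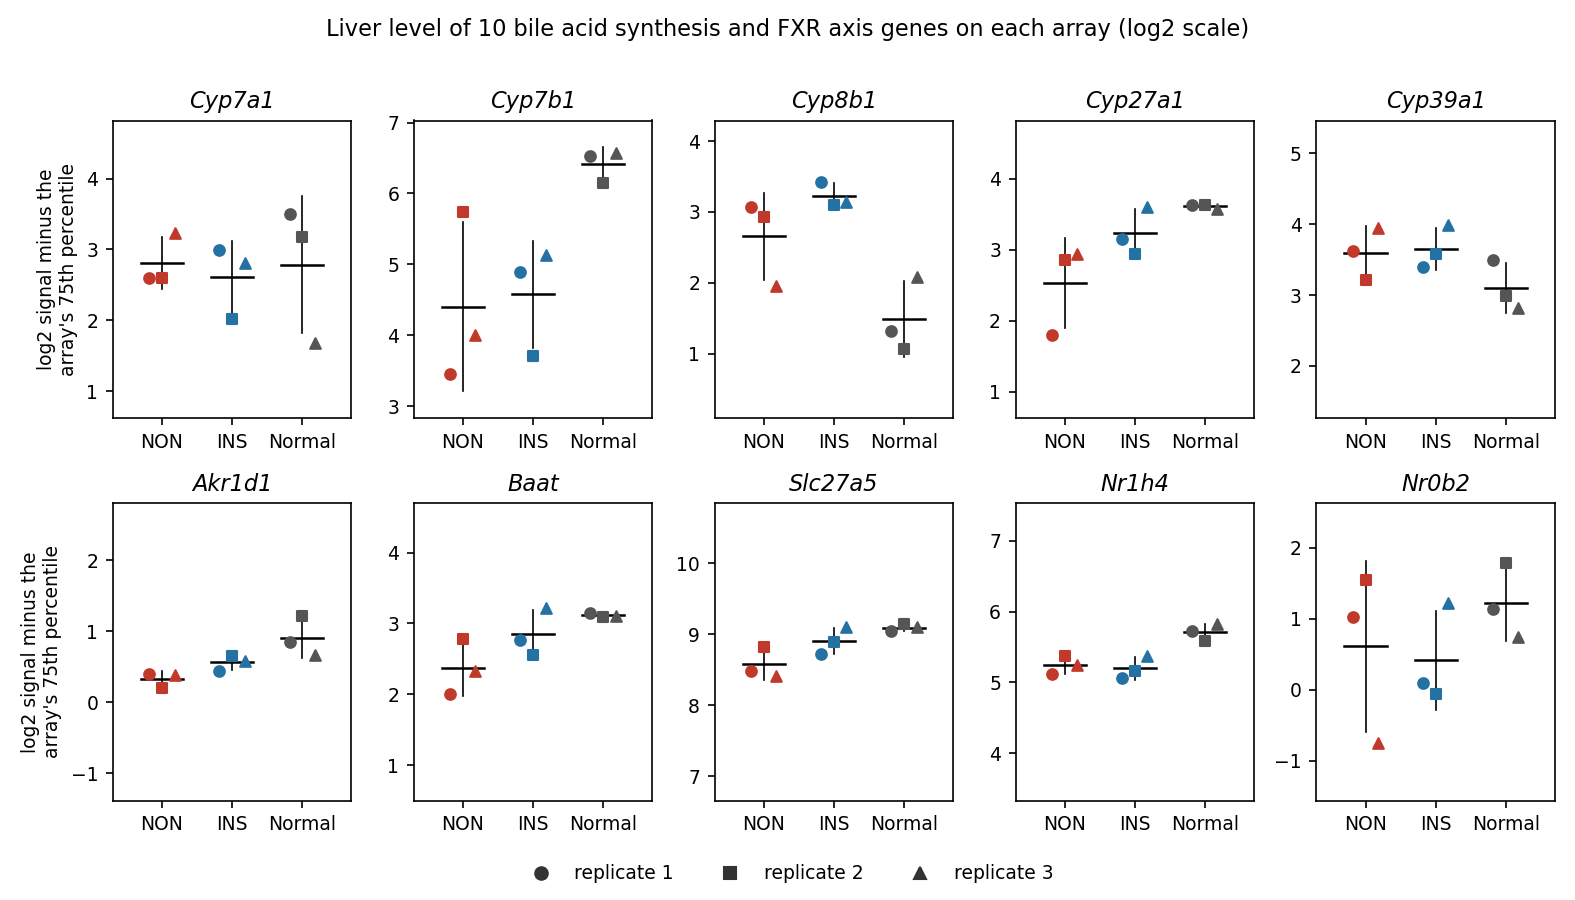
Level of each of the 10 genes on each of the 9 arrays, by group (red STAM-NON, blue STAM-INS, grey Normal). The vertical axis is the log2 signal minus the array's 75th percentile and spans the same width in every panel, symbols mark the replicate, the horizontal bar is the group mean and the vertical bar 1 SD (n = 3 mice). Cyp7b1 is high on the 3 Normal arrays (6.14 to 6.58) and spread over the 6 STAM arrays (3.46 to 5.74), whereas Cyp8b1 has its lowest group mean in Normal (1.49).

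The classical route was described by Cyp7a1 and Cyp8b1. Cyp7a1, its rate-limiting enzyme, had levels of 2.601, 2.598 and 3.23 in STAM-NON, 2.99, 2.02 and 2.81 in STAM-INS, and 3.50, 3.17 and 1.68 in Normal. Normal replicate 3 was the lowest of all 9 arrays and Normal replicate 1 the highest, and the 3 groups overlapped. The difference was 0.02 (95% confidence interval -1.05 to 1.096) for STAM-NON against Normal and -0.18 (-1.25 to 0.89) for STAM-INS against Normal. Between STAM-INS and STAM-NON it was -0.20 (-1.27 to 0.87). None was called, and these intervals include changes of this gene by nearly 1 doubling of signal in either direction. A call, made after adjustment over all probes, needed more than an interval that leaves out 0, so larger changes could also have been missed.

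Cyp8b1 was the member with the clearest difference from Normal. Its levels were 3.08, 2.93 and 1.96 in STAM-NON, 3.43, 3.10 and 3.15 in STAM-INS, and 1.32, 1.06 and 2.08 in Normal. The 3 STAM-INS arrays lay close together and above every Normal array, while STAM-NON replicate 3 lay just under Normal replicate 3. In STAM-INS the signal was 3.33-fold that of Normal (difference 1.74, SE 0.34, limma adjusted p 0.0170). In STAM-NON it was 2.25-fold that of Normal (difference 1.17, SE 0.34, limma adjusted p 0.0511), which was not called. The difference between the STAM groups was 0.57 (95% confidence interval -0.21 to 1.35, limma adjusted p 0.665).

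The higher Cyp8b1 of STAM-INS kept its direction in all 25 alternatives and was past the threshold in 20 of them. It was not called without STAM-INS replicate 2 (limma adjusted p 0.0590), without Normal replicate 1 (0.0596) or without Normal replicate 2 (0.0567). For STAM-NON against Normal the direction also held in all 25 alternatives and 8 of them passed, among them the fit without STAM-NON replicate 3 (difference 1.52, limma adjusted p 0.0318).

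The alternative route was described by Cyp27a1, Cyp7b1 and Cyp39a1. Cyp27a1, the mitochondrial sterol hydroxylase, had levels of 1.80, 2.85 and 2.94 in STAM-NON, 3.15, 2.95 and 3.61 in STAM-INS, and 3.64, 3.63 and 3.58 in Normal. The Normal arrays lay close together, STAM-NON replicate 1 was the lowest, and no STAM-NON array reached a Normal or STAM-INS array. STAM-NON was lower than Normal by a factor of 2.12 (difference -1.08, SE 0.30, limma adjusted p 0.0441). STAM-INS overlapped Normal (difference -0.38, limma adjusted p 0.406) and was higher than STAM-NON by 0.71 (95% confidence interval 0.02 to 1.39), which did not pass after adjustment over all probes (limma adjusted p 0.563). Without STAM-NON replicate 1 the difference of STAM-NON from Normal was -0.72 and that of STAM-INS from STAM-NON was 0.34.

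Cyp7b1 removes the products of Cyp27a1 by oxysterol hydroxylation and had the largest fold among the 10 genes. Its levels were 3.46, 5.74 and 4.01 in STAM-NON, 4.89, 3.71 and 5.13 in STAM-INS, and 6.52, 6.14 and 6.58 in Normal. Every STAM array lay below every Normal array, and the STAM arrays were spread over more than 2 log2 units, with STAM-NON replicate 2 nearest to Normal. STAM-NON was lower than Normal by a factor of 4.03 (difference -2.01, SE 0.58, limma adjusted p 0.0490). STAM-INS was lower by 1.84 (SE 0.58), which was not called (limma adjusted p 0.0675). The difference between the STAM groups was 0.17 (95% confidence interval -1.15 to 1.496). For STAM-NON the direction held in all 25 alternatives and 6 of them passed. The difference ran from -2.68 without STAM-NON replicate 2 to -0.67 where replicate 2 was the only STAM-NON array kept, and it was -1.68 under hepatocyte centring (limma adjusted p 0.0617).

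Cyp7b1 is known as a gene expressed more in male than in female mouse liver, and the levels of male-biased genes are given beside it. The mean level of 5 such genes (Elovl3, Hsd3b5, Cyp4a12a, Slco1a1 and Susd4) was -0.98, 2.87 and 1.19 in STAM-NON, 2.67, 0.86 and 3.49 in STAM-INS, and 4.48, 4.42 and 4.80 in Normal. In each group the arrays stood in the same order for Cyp7b1 and for this mean. The order was not particular to Cyp7b1: Baat stood in it too in STAM-NON and STAM-INS, though not in Normal. Of the 5 genes 1, the steroid dehydrogenase Hsd3b5, was called lower in STAM-NON than in Normal (difference -8.31, limma adjusted p 0.0289). Of all probes, 9.76% were called lower in that comparison. Hsd3b5 ran from -6.80 to 0.43 in STAM-NON (SD 4.04) and from 6.07 to 6.24 in Normal. It was well above background on 2 of its 3 STAM-NON arrays, so the size of its difference is uncertain. Slco1a1 is also on the list of transporters below. In STAM-INS none of the 5 was called by limma against Normal or against STAM-NON, and 2 and 1 had an unadjusted p under 0.05. Of all 26289 probes, 8532 and 2308 had such a p in these comparisons. The part of the male-biased genes in the level of Cyp7b1 was not tested.

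**Figure D2:**
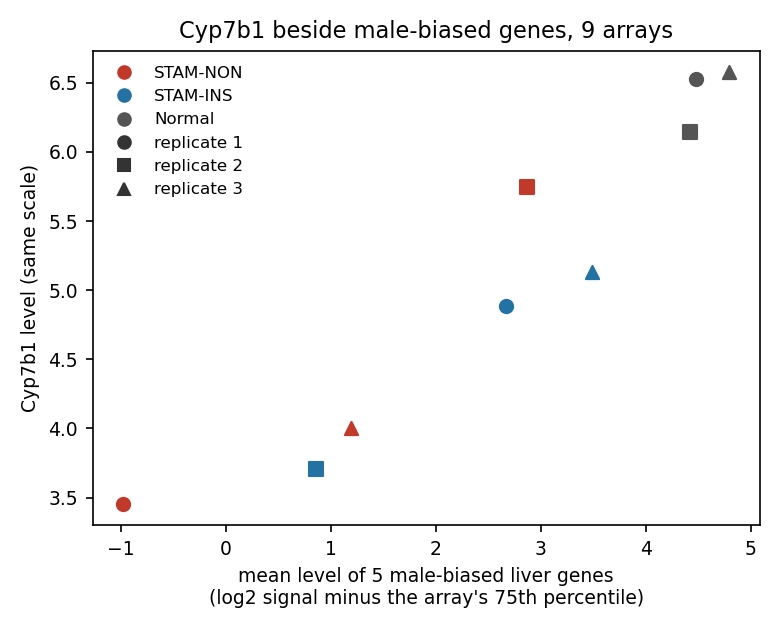
Level of Cyp7b1 (vertical axis, log2 signal minus the array's 75th percentile) against the mean level of 5 male-biased liver genes on the same scale (horizontal axis), 1 point for each of the 9 arrays, coloured by group and shaped by replicate. STAM-NON replicate 1 is lowest on both axes (3.46 and -0.98) and Normal replicate 3 is highest on both (6.58 and 4.80).

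Cyp39a1, an oxysterol hydroxylase of liver, had levels of 3.63, 3.21 and 3.95 in STAM-NON, 3.40, 3.58 and 3.98 in STAM-INS, and 3.50, 2.99 and 2.81 in Normal. The groups overlapped, and Normal held the lowest arrays. The differences from Normal were 0.50 (limma adjusted p 0.194) in STAM-NON and 0.55 (limma adjusted p 0.170) in STAM-INS, and neither was called.

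Akr1d1, which reduces the steroid ring on both routes, had levels of 0.40, 0.20 and 0.38 in STAM-NON, 0.45, 0.66 and 0.59 in STAM-INS, and 0.85, 1.22 and 0.66 in Normal. STAM-NON lay below both other groups with no overlap, and STAM-INS replicate 2 lay just under Normal replicate 3. STAM-NON was lower than Normal by a factor of 1.49 (difference -0.58, SE 0.16, limma adjusted p 0.0408). Over the 7 scalings the difference of STAM-NON ran from -0.73 to -0.24, and it was called under the reported one alone. STAM-INS was between them, with a difference from Normal of -0.34 (95% confidence interval -0.70 to 0.01) and from STAM-NON of 0.23 (-0.12 to 0.59).

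The conjugating enzymes Slc27a5 and Baat act in series, the first joining a bile acid to coenzyme A and the second passing it on to taurine or glycine. The leading probe of Slc27a5 had levels of 8.49, 8.82 and 8.42 in STAM-NON, 8.72, 8.89 and 9.10 in STAM-INS, and 9.04, 9.14 and 9.10 in Normal. Normal arrays were close together and above every STAM-NON array. STAM-NON was lower than Normal by a factor of 1.43 (difference -0.52, SE 0.15, limma adjusted p 0.0456), and the other probe of the gene gave -0.66 (SE 0.14, limma adjusted p 0.0245). For the leading probe the difference was -0.14 under quantile normalization (limma adjusted p 0.400), -0.18 under hepatocyte centring and -0.25 under E1A centring, none of them called. In STAM-INS the differences from Normal were -0.19 and -0.29 for these probes and were not called.

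Baat had levels of 1.999, 2.78 and 2.33 in STAM-NON, 2.76, 2.55 and 3.22 in STAM-INS, and 3.14, 3.08 and 3.11 in Normal. All STAM-NON arrays lay below all Normal arrays, and STAM-INS replicate 3 lay above them. The difference between STAM-NON and Normal was -0.74 (SE 0.23, limma adjusted p 0.0566), larger in size than that of Slc27a5 and not called. STAM-INS differed from STAM-NON by 0.48 (95% confidence interval -0.04 to 0.99).

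The receptor Nr1h4 had levels of 5.12, 5.37 and 5.25 in STAM-NON, 5.06, 5.16 and 5.38 in STAM-INS, and 5.72, 5.58 and 5.82 in Normal. Both STAM groups lay below Normal with no overlap, and they overlapped each other. The difference from Normal was -0.46 (SE 0.13, limma adjusted p 0.0454) in STAM-NON, a factor of 1.38, and -0.51 (SE 0.13, limma adjusted p 0.0364) in STAM-INS, a factor of 1.42. Between the STAM groups it was -0.05 (95% confidence interval -0.34 to 0.25). The size of the drop depended on the centring: under hepatocyte markers it was -0.12 in STAM-NON (limma adjusted p 0.632) and -0.43 in STAM-INS (0.129).

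Nr0b2, the repressor induced by FXR, had levels of 1.03, 1.55 and -0.75 in STAM-NON, 0.09, -0.06 and 1.22 in STAM-INS, and 1.14, 1.78 and 0.74 in Normal. The groups overlapped widely, and STAM-NON replicate 3 was the lowest of the 9 arrays. The differences from Normal were -0.61 (95% confidence interval -1.98 to 0.76) and -0.80 (-2.17 to 0.57) in STAM-NON and STAM-INS, and without STAM-NON replicate 3 the first of these was 0.07.

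**Figure D3:**
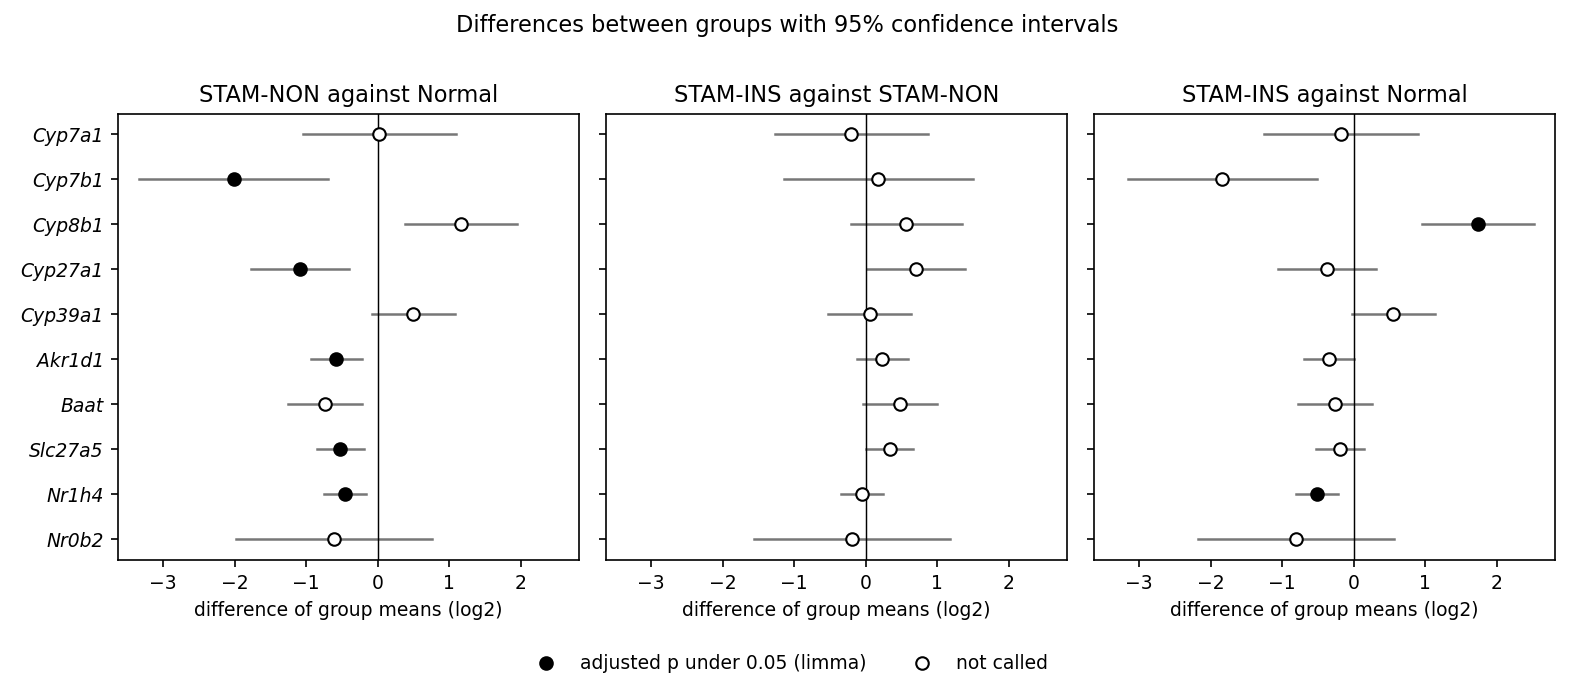
Difference of group means on the log2 scale (horizontal axis) for each of the 10 genes (vertical axis) in the 3 comparisons. Points are limma estimates, lines are 95% confidence intervals, and filled points had an adjusted p under 0.05. The filled points are 5 lower genes for STAM-NON against Normal, none for STAM-INS against STAM-NON, and Cyp8b1 (1.74) and Nr1h4 (-0.51) for STAM-INS against Normal.

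Since centring moved the smaller differences, pairs of enzymes were also compared on the same array, where any centring cancels. The pairs were chosen after the levels were seen and set Cyp8b1, which was higher, against Cyp7b1 and Cyp27a1, which were lower, so their separation is a description and no independent evidence. The level of Cyp8b1 minus that of Cyp7b1 was -0.38, -2.81 and -2.05 in STAM-NON, -1.46, -0.61 and -1.98 in STAM-INS, and -5.21, -5.08 and -4.49 in Normal. No STAM array overlapped a Normal array, and the shift amounted to 9.06-fold in STAM-NON and 11.9-fold in STAM-INS in favour of Cyp8b1. The two-sided exact permutation p was 0.1 for each, the smallest that 3 against 3 arrays can give, and 0.18 after adjustment over the 9 comparisons of this kind. Cyp8b1 minus Cyp27a1 was likewise higher on every STAM array than on every Normal array, by 2.25 in STAM-NON and 2.12 in STAM-INS (exact permutation p 0.1 each). For Cyp7a1 minus Cyp7b1 the difference from Normal was 2.04 in STAM-NON, with overlap (exact permutation p 0.3), and 1.66 in STAM-INS, without overlap (exact permutation p 0.1). Between the STAM groups the pairs differed by 0.40, -0.14 and -0.38, all with overlap (exact permutation p 0.6 to 1).

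**Figure D4:**
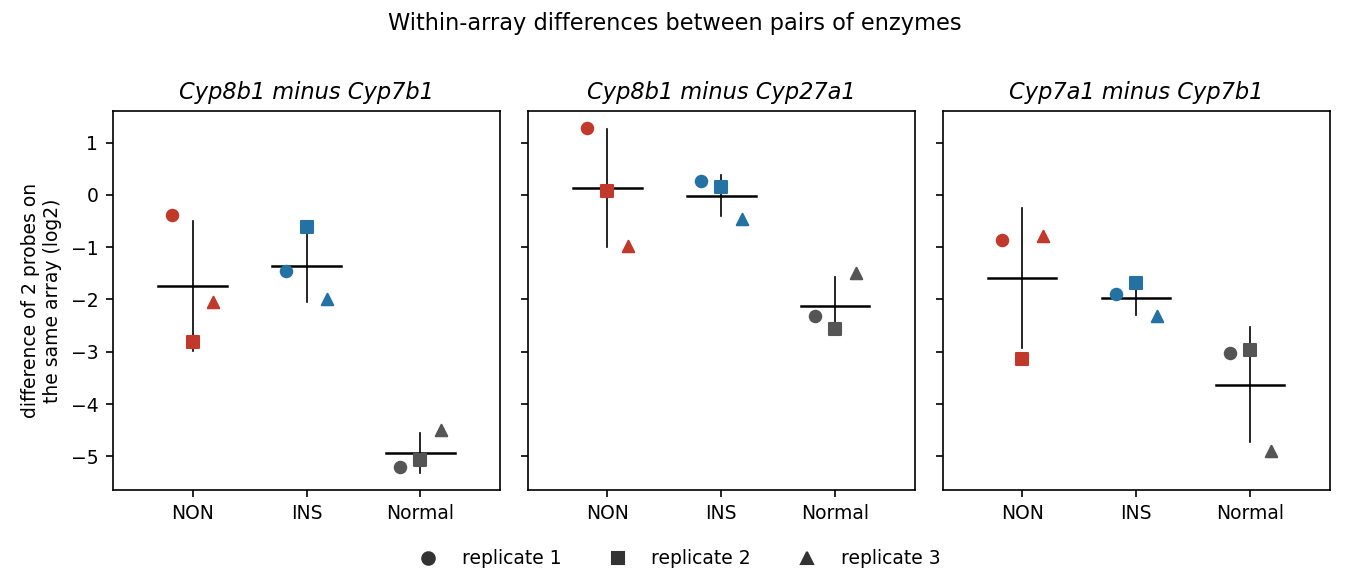
Difference between 2 enzymes on the same array on the log2 scale (vertical axis) for 3 pairs, by group, with 1 symbol per array, the group mean as a horizontal bar and 1 SD as a vertical bar (n = 3 mice). The value itself carries the brightness of the probes, so it is read between groups only; for Cyp8b1 minus Cyp7b1 the Normal arrays lie at -5.21 to -4.49 and the STAM arrays at -2.81 to -0.38.

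**Figure D5:**
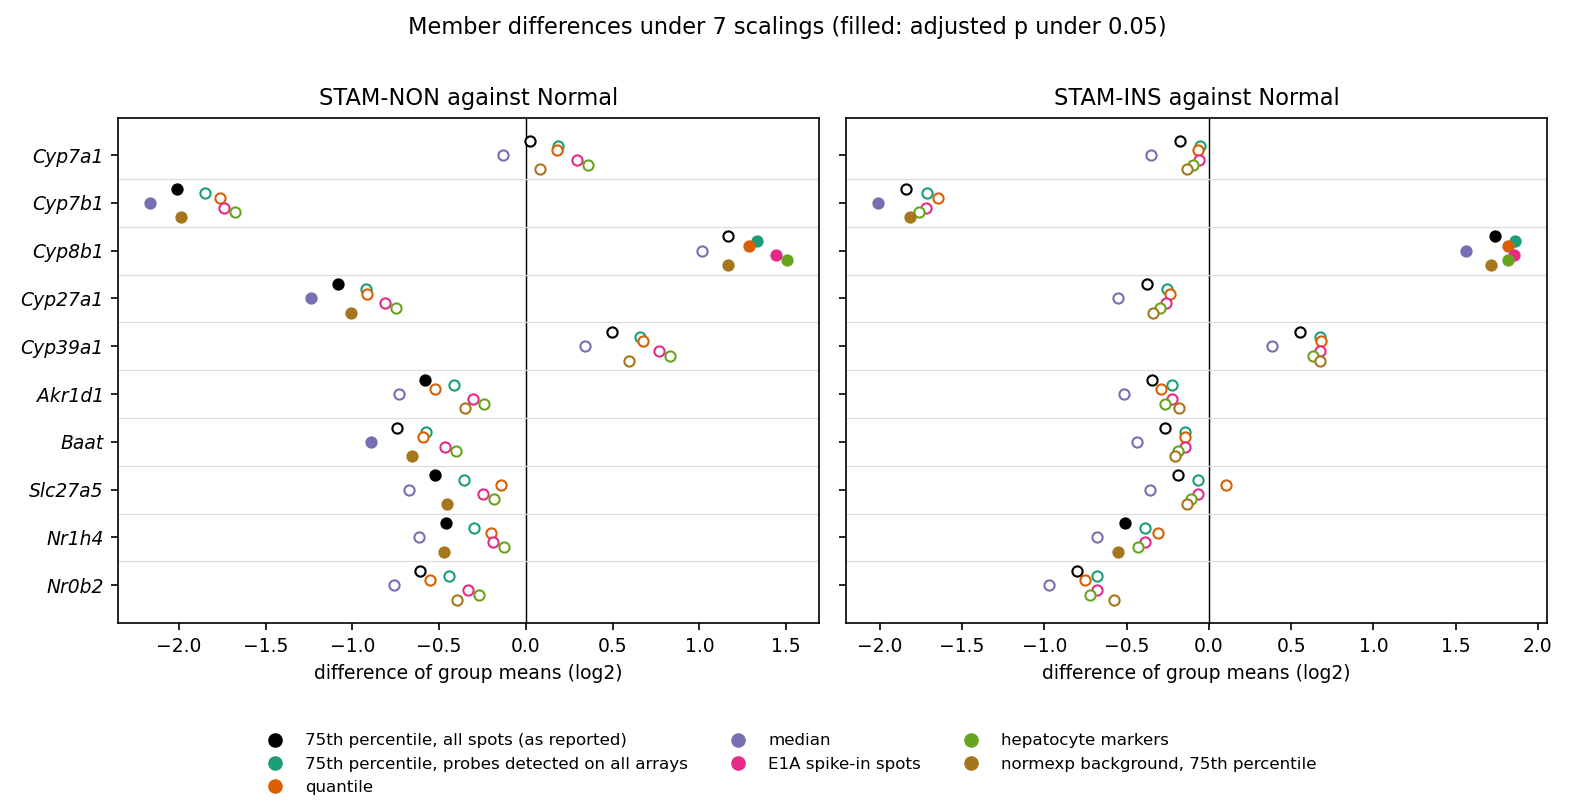
Differences of the 10 genes from Normal on the log2 scale (horizontal axis) under 7 scalings, for STAM-NON (left) and STAM-INS (right); colours mark the scaling and filled points had an adjusted p under 0.05. Cyp8b1 in STAM-INS is filled in all 7 (1.57 to 1.86), whereas Nr1h4 in STAM-NON moves from -0.61 to -0.12.

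Other enzymes of the pathway were counted from a list of 14, of which 13 were tested (Ch25h was dim). Among all probes tested, 9.76% were called lower in STAM-NON than in Normal and 8.72% in STAM-INS. In STAM-NON, 5 of 13 were called lower than in Normal and 0 higher, with a median difference of -0.54. They were the electron carriers Por (the P450 reductase) and Fdx1 (the ferredoxin that serves Cyp27a1), the cholesterol hydroxylase Cyp46a1, the peroxisomal thiolase Scp2 and Hsd3b7, which follows the first hydroxylation. Hsd3b7 was lower by 0.83 (SE 0.24, limma adjusted p 0.0497) and Fdx1 by 0.75 (SE 0.15, limma adjusted p 0.0193). Cyp2c70, the mouse enzyme that makes muricholic acids, had group means of 5.46 (SD 1.49), 6.93 (SD 0.44) and 7.27 (SD 0.07) in STAM-NON, STAM-INS and Normal and was not called in any comparison. In STAM-INS, 3 of 13 were called lower than in Normal and 0 higher (median difference -0.46), and Por had the largest difference of them, -1.97 (SE 0.19, limma adjusted p 0.00185). Por was also lower in STAM-INS than in STAM-NON by 1.31, without overlap, and was not called (limma adjusted p 0.0725).

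Of the regulators, 12 of 14 were tested, since Fgf15 and Vdr were dim. The share of all probes called lower than in Normal was 9.76% in STAM-NON and 8.72% in STAM-INS. In STAM-NON, 2 of 12 were called lower than in Normal and 0 higher (median difference -0.23, and -0.15 in STAM-INS): Rxra, the partner of FXR (-0.61, limma adjusted p 0.0219), and the xenobiotic receptor Nr1i3 (-0.81, limma adjusted p 0.0279). A second Rxra probe had group means of 0.29 and 0.28 in STAM-NON and Normal, so the probes of that gene disagreed. In STAM-INS, Nr1i2 (-0.61, limma adjusted p 0.0288) and Nr1i3 (-1.06, limma adjusted p 0.0119) were called lower and 0 of 12 higher. The leading probes of the activators named for Cyp8b1 were not called: Nr5a2 differed from Normal by -0.12 and 0.02 and Hnf4a by -0.22 and -0.10 in STAM-NON and STAM-INS. Another Nr5a2 probe averaged -1.02 on Normal arrays, against -1.37 for STAM-NON and -1.23 for STAM-INS. Every STAM array lay below every Normal array for that probe, but the gap was small. The highest STAM-INS array stood at -1.132 and the lowest Normal array at -1.128. Of all probes, 41.2% did not overlap between STAM-NON and Normal and 44.0% between STAM-INS and Normal. Nr5a2 is therefore read neither as changed nor as unchanged. Fgfr4 and Klb carry the signal of intestinal FGF15, and their leading probes were not called. These differed from Normal by -0.45 and -0.45 in STAM-NON and by 0.25 and -0.26 in STAM-INS. The other Fgfr4 probe went the same ways, with a Normal mean of 0.15 against -0.48 for STAM-NON and 0.28 for STAM-INS.

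Of the bile acid transporters, 10 of 11 were tested (Slc51a was dim). The counts called lower stand beside 9.76% of all probes in STAM-NON and 8.72% in STAM-INS. In STAM-NON, 1 of 10 was called lower, the uptake carrier Slco1b2 (-0.98, SE 0.25, limma adjusted p 0.0369), and 0 were called higher (median difference -0.53, and -0.19 in STAM-INS). In STAM-INS, 1 of 10 was called lower, Slco1a4 (-2.17, limma adjusted p 0.0425). The export pump Abcb11, an FXR target, had group means of 5.74 (SD 0.65), 6.63 (SD 0.24) and 6.65 (SD 0.06) in STAM-NON, STAM-INS and Normal and was not called (limma adjusted p 0.0641 between STAM-NON and Normal, 0.492 between both STAM groups). Slc51b, an exporter that FXR also induces, differed from Normal by 1.72 and 1.85 in STAM-NON and STAM-INS (limma adjusted p 0.0740 and 0.0660). For Slc10a1, the sodium-dependent uptake carrier, the leading probe differed from Normal by -0.04 in STAM-NON, and was not called, whereas its other probe was called lower (-0.65, limma adjusted p 0.0269), so the probes of that gene disagreed. Between STAM-INS and STAM-NON, 0 genes of these 3 lists were called by limma. The median differences of enzymes, regulators and transporters were -0.077, 0.054 and -0.032, beside 0.025 over all probes. An unadjusted limma p under 0.05 was held by 3 enzymes, 3 regulators and 1 transporter, and by 2308 of all 26289 probes.

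Markers of the cell types that liver holds moved beside the members. For STAM-NON against Normal, 1655 of the 26289 probes tested were called higher and 2565 lower. Of 9 hepatocyte markers tested, 1 (Asgr1) was called lower in STAM-NON than in Normal and the median difference was -0.34. The array with the lowest mean, STAM-NON replicate 1 (7.74), was also the lowest for Cyp27a1, Cyp7b1 and Baat, and not for the other members. Slc27a5 and Nr0b2 were lowest on STAM-NON replicate 3, Akr1d1 on STAM-NON replicate 2 and Nr1h4 on STAM-INS replicate 1. Cyp7a1, Cyp8b1 and Cyp39a1 were lowest on a Normal array. Of 7 cholangiocyte markers 6 were tested, since Epcam was dim. Of these 6, 3 were called higher in STAM-NON (Krt7, Sox9 and Spp1), with Krt7 well above background on 1 of 3 Normal arrays. The mean level of the list ran from -1.37 to -0.70 in STAM-NON, -1.20 to -0.90 in STAM-INS and -2.20 to -1.48 in Normal. Of 5 macrophage markers 1 was called higher (Clec4f, list means 2.97 to 3.73, 3.06 to 3.84 and 2.57 to 2.96 in the same order). Of 7 stellate cell and fibroblast markers 0 were called by limma (list means 0.94 to 1.498, 0.47 to 1.17 and 0.19 to 0.78). A higher mean in STAM-NON than in Normal was seen for 6 of the 7. An unadjusted limma p under 0.05 was held by 4 of them, and by 9401 of the 26289 probes tested. Of 5 endothelial markers 1 was called higher (Lyve1, list means 1.28 to 2.32, 0.97 to 1.91 and 1.04 to 1.22), and 4 had a higher mean in STAM-NON than in Normal. Lyve1 had group means of 1.33 in STAM-NON and -1.68 in Normal, whereas Stab2 had 4.01 and 3.93, and Kdr was lower in STAM-NON (3.63 against 3.91). Of 4 liver tumour markers 3 were on the array, and Gpc3 and Igf2 were dim, so Afp alone was tested. Afp, also a marker of fetal liver, was higher than in Normal by 3.10 in STAM-NON and 3.30 in STAM-INS (limma adjusted p 0.0269 and 0.0222). Its level on the STAM-INS arrays ran from 0.53 to 3.45. The part of these changes in cell markers in the members' differences was not tested.

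The genes whose levels over the 9 arrays ran most like a called member were sought among 72 genes of these lists. The nearest by Pearson's r were Slco1b2 (0.96) for Cyp7b1, Slco1a1 (0.95) for Cyp27a1, Rxra (0.97) for Slc27a5, Nr1i3 (0.97) for Nr1h4, Asgr1 (0.74) for Akr1d1 and Sox9 (0.78) for Cyp8b1. The 9 arrays share the 3 groups, the slides and the centring, so these values describe likeness across these arrays and nothing else.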

How the data were processed

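Liver RNA of 9 mice was hybridised to 1-colour Agilent arrays, 1 array a mouse. The authors deposited Feature Extraction scanner files (version 11.5.1.1). Per the file headers these hold a processed signal, an intensity already corrected for background, for each spot. No normalization between arrays was given in the sources used here. For 2 groups the study's methods name an unpaired t-test or a Mann-Whitney U test, and they also name ANOVA. None of these is tied to the arrays. The t-test alone was run as an alternative and is called the methods' t-test below. The array design was built on mm9; genes were named through RefSeq accessions of a GRCm38.p6 table (27656 of 55681 probes matched), from which names and the upstream sequences were taken.

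Control spots and 161 to 217 outlier-flagged spots an array were left out; no spot was saturated. Here the deposited intensity was turned to log2, spots of a probe were averaged and the 75th percentile of the array's 59305 non-control spots was subtracted. The filter kept 26289 probes for which, in 1 group or more, all 3 arrays had a share of 0.5 or more of the probe's spots well above background. Limma 3.58.1 in R 4.3.3 was fitted to all 9 arrays with no block (6 residual degrees of freedom), with Benjamini-Hochberg adjustment over all tested probes. It was tested on simulated data with the same spread in all groups, so unequal spreads were not checked. Where a gene had several probes, the one with the highest mean led. The p-values measure the spread between mice, and 3 arrays a group limit the precision. Members and lists were chosen with earlier results of these data known. From other lists, up to 3 genes of lowest p in a comparison and 11 neighbours in the pathway could be named. Dim genes were named as such, and Kdr and Stab2 were named beside Lyve1 whatever their p. Likeness named the nearest genes by Pearson's r. Alternatives covered the centring, normexp background correction (offset 50, on the median spot signal, since no mean signal column is in the files), the filter, the test, the groups fitted, slide row, the replicate number as a block, and leaving out each array; those on flagged spots, on the 3 arrays with most spots above background and on pairs within an array were added after seeing the data.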

Additional observations from a re-analysis of the deposited data

How the results depend on the processing

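Of 825 values of member probes under alternatives, 644 kept their direction and side of the threshold and 130 lost the call. A call was gained by 21, and 30 changed sign, 0 of them past the threshold. The 644 include results called under neither setting. In STAM-NON against Normal, the called probes stayed past the threshold in 4 (Akr1d1) to 11 (other probe of Slc27a5) of 25 alternatives. In STAM-INS against Normal, Cyp8b1 did so in 20 and Nr1h4 in 10. In STAM-NON against Normal, 5 members were called. The count was 1 under the detected-probe percentile, quantile, E1A and hepatocyte centrings, 3 under median centring, and 0 without the filter, after the methods' t-test with Benjamini-Hochberg adjustment, with only the 2 groups compared, and with slide row as a block. It was 6 with normexp and 7 each with limma's trend and robust options and with probes above background on all arrays. Leaving out 1 array gave 0 to 5. Counts are over leading probes. In STAM-INS against Normal, 2 were called; the count was 1 under those 4 centrings and slide row and 0 without the filter or after that t-test, and leaving out 1 array gave 0 to 3. The methods' t-test at an unadjusted p under 0.05 gave 6, 0 and 3 members for STAM-NON against Normal, STAM-INS against STAM-NON and STAM-INS against Normal. In STAM-INS against STAM-NON the member count was 0 throughout. In the slide row fit every STAM-NON array is from row 1 and every Normal array from row 2, so row and group nearly coincide and STAM-INS replicate 1 alone links the rows for that contrast. Leaving out the 3 arrays with most spots above background (STAM-NON 1 and 3 and STAM-INS 1) keeps STAM-NON replicate 2 alone, so its values compare 1 mouse, assumed to vary like the other groups, and say nothing of stability; 0 members were called in STAM-NON against Normal.

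Over all probes, 4220, 24 and 3647 were called in the same order of comparisons. The counts were 250, 7 and 571 without the filter, 15, 13 and 2157 with slide row, and 7536, 1498 and 8813 by the t-test unadjusted; after adjustment it gave 30 and 1 in the first and second. With only the 2 groups compared the first and second were 2180 and 8, and without the 3 arrays, with 1 STAM-NON mouse left, 851 and 568. The second was 6 with probes above background on all arrays. The third was 1973 under E1A and 1627 under hepatocyte centring. Leaving out 1 array gave 940 to 5822, 10 to 105 and 1038 to 4326. In STAM-NON against Normal, calls split 1655 higher and 2565 lower as reported, 2077 and 1064 under the detected-probe percentile, 1539 and 1426 under quantile, 2443 and 438 under E1A, 2730 and 371 under hepatocyte, and 1329 and 3102 under normexp; in STAM-INS against Normal they split 1355 and 2292, against 1679 and 1298, 1328 and 1758, 1276 and 697, 933 and 694, and, centred on the median, 801 and 2111.

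Replicate numbers did not pair the arrays (correlations of same-numbered deviations -0.29 to 0.15). With the replicate block, 0, 0 and 1 members and 2016, 6 and 1871 probes were called. Slide as a block was not run, because slide and Normal coincide and the STAM groups share 1 slide.

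Values that changed sign were small or widely spread. Cyp7a1 in STAM-NON against Normal became -0.13 with median centring, -0.55 with slide row, -0.19 for STAM-NON replicate 2 alone (without the 3 arrays) and -0.53 to 0.38 with 1 array left out. Cyp7a1 in STAM-INS against STAM-NON became 0.18 with slide row and ran from -0.39 to 0.092 with 1 array left out, and against Normal from -0.73 to 0.18. Nr0b2 in STAM-NON against Normal became 0.33 for that mouse alone and ran from -1.08 to 0.071 with 1 left out, and in STAM-INS against STAM-NON from -0.87 to 0.27. In STAM-INS against STAM-NON, Cyp7b1 became -0.084 with hepatocyte centring and -1.32 against that mouse alone and ran from -0.30 to 0.84 with 1 left out. In that comparison Cyp39a1 became -0.095 with E1A, -0.20 with hepatocyte centring and -0.19 with slide row and ran from -0.14 to 0.24, Nr1h4 ran from -0.14 to 0.021, and Akr1d1 became -0.023 with hepatocyte centring. Slc27a5 in STAM-INS against Normal became 0.10 with quantile normalization. The causes of these changes were not tested.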
